A study of Capra hircus with 3 samples.

Results

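The deposited mammary gland values of the Laoshan dairy goat hold 470 unannotated rows that lie in the locus of an annotated gene. They were found by a rule on position and name: the row carries an assembly number and no gene ID, its listed locus spans at least 400 nt, and the whole locus lies within the locus of a row with a gene ID on the same scaffold. These 470 rows were 0.939% of the 50041 rows of the file and 1.5% of the 31362 unannotated rows of at least 400 nt, and they lay at 51 gene loci. No expression value was used to choose them. Mammary tissue had been taken by surgery from goats of the Laoshan breed of 1 age and in the third lactation, with no treatment that differed between groups. Total RNA of 5 goats was pooled in equal parts into 1 library for each of 3 stages, early lactation at 10 days, peak lactation at 90 days and late lactation at 210 days after parturition, and the libraries were made with a kit that keeps strand. The values are FPKM, fragments scaled to transcript length and library size, as the authors deposited them. With 1 pooled library per stage the spread between animals cannot be estimated, so every ratio below compares 2 libraries, carries no error and has no p-value.

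The stage of each library was taken from its label. Between the columns with the labels peak and late, the deposited values run opposite to the study's own listing of annotated lncRNAs, so these labels may be exchanged. Libraries are called early-labelled, peak-labelled and late-labelled for that reason, and 3 values in a row are given in that order. In whole tissue, fewer cells of a type and less RNA per cell cannot be told apart.

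Mammalian genes are often transcribed beyond their annotated exons. Long introns are copied with the exons and removed by splicing, separate noncoding RNAs can start within an intron or on the opposite strand, and many genes have first or last exons that an annotation lacks. A transcript assembler joins overlapping reads into transcript fragments and gives fragments that it cannot join to a known transcript a number of their own. Intronic, antisense and sense-overlapping RNAs in a gene are thus expected classes among such fragments, together with pieces of precursor RNA, and expression values alone do not tell these classes apart.

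The listed positions do not place the rows inside the genes. All 470 rows had exactly the same start and end as a row with a gene ID, 0 lay strictly inside one, and among the 47098 different loci of the file there were 0 overlaps. The listed locus is therefore a span that several rows share, and the place of an unannotated row within it is not given. They are called here unannotated rows that share a gene's locus, and the gene row is called the host without implying a strand, an intron or a common transcript. The loci ran from 5215 nt at TMEM119 to 486042 nt at MBD5, with a median of 48302 nt, against 20338.5 nt for all rows with a gene ID. No sequence is given because the rows have no position of their own and the assembly behind the scaffold names is not named. At the limit of 400 nt no row was near to being lost: 0 unannotated rows of shorter span lay in a gene locus. The nearest rows on either side of it, such as XLOC_008763 with 399 nt and XLOC_000013 with 400 nt, lay outside gene loci. FPKM there were 3.07, 1.54 and 1.41 for XLOC_008763 and 2.14, 5.64 and 4.90 for XLOC_000013.

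Sharing of a locus was not limited to genes. A further 302 loci held 1189 unannotated rows that shared a span only among themselves, and they are used below for comparison along with 12257 unannotated rows within 10 kb of a gene row and 18635 further away.

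The tissue label was checked against marker genes. The summed FPKM of 7 measured genes of milk-secreting epithelium was 124522, 32932 and 71673, with LALBA, the whey protein of lactose synthesis, listed at 0 in the last. All 5 myoepithelial markers together lay between 247 and 259, all 4 endothelial markers between 104 and 126, and 2 measured adipocyte markers between 4.93 and 16.4. The 4 leukocyte markers summed to 37.7, 69.3 and 19.2, with CD3E at 0 in the first 2 of these libraries, so the leukocyte sum was highest and the epithelial sum lowest in the peak-labelled library. The part of these shifts in the ratios below was not tested. No gene of the erythrocyte or skeletal muscle lists was measured.

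The host genes were 21 protein-coding genes, 19 lncRNA genes and 1 transcribed pseudogene by the ARS1.2 gene table, and 10 hosts had no match there and are named by gene ID. The protein-coding hosts held 153 of the unannotated rows, the lncRNA hosts 109, the pseudogene 63 and the hosts without a match 145. None of the genes of 7 lists of mammary biology was a host: 0 of 15 measured milk protein and milk fat globule genes, 0 of 29 for fatty acid, triglyceride and sterol synthesis, 0 of 30 for hormone and growth factor signalling, 0 of 28 for extracellular matrix and adhesion, 0 of 27 for immune cells, 0 of 17 for the circadian clock and nuclear receptor co-regulators, and 0 of 22 for small nucleolar RNA hosts and ribosomal proteins. Since only 99 of 15277 gene rows, or 0.648%, lay at these loci, these counts of 0 do not set mammary genes apart. A pair of solute carriers was among the hosts: SLC16A1, the proton-coupled carrier of lactate and pyruvate, and SLC1A1, a carrier of glutamate and aspartate.

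The rows were unevenly spread over the loci. There was 1 row at each of 12 loci and at least 10 rows at each of another 12, which together held 335 rows or 71.3%. The pseudogene LOC102189349 had 63 rows, on scaffold NW_005100889.1 from 2047058 to 2518805, and the gene with ID 106503433 had 55, on scaffold NW_005100911.1 from 15256398 to 15456748. These 2 loci held 25.1% of the rows and weigh on every count over rows. After them came LOC102168677 with 43, gene 102177096 with 35, LOC102173237 with 32, SLC16A1 with 30, SLC1A1 with 20 and gene 102180340 with 14. Longer loci held more rows, with a Spearman coefficient of 0.59 over the 51 loci, and the density ran from 0.206 to 41.6 rows per 100 kb with a median of 9.20. LOC102173237, an lncRNA gene of 77013 nt, was at the upper end of this range, and MBD5, with a single row in the longest locus, was at the lower end.

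Most unannotated rows at gene loci were of low abundance. The median was 1.64, 1.57 and 1.95 FPKM, against 6.09, 6.36 and 5.88 for all rows with a gene ID and 3.38, 2.80 and 3.27 for the 99 gene rows at the same loci. Unannotated rows within 10 kb of genes had medians of 1.43, 1.46 and 1.34, and those further away had 1.33, 1.46 and 1.32. The rows at gene loci thus had a level close to that of other unannotated rows and well under that of genes. High values were more frequent than near genes: 36, 13 and 40 rows reached 10 FPKM, or 7.66%, 2.77% and 8.51%, against 1.69%, 1.07% and 1.68% of the rows within 10 kb of genes. Among unannotated rows that shared a span only with each other the shares were 5.38%, 3.20% and 5.38%, with medians of 1.90, 1.37 and 2.03 FPKM, so both classes of shared span had more high values. In the peak-labelled library the distribution reached lower, with a lower quartile of 0.558 against 1.10 FPKM for the rows within 10 kb of genes. The unannotated rows that shared a span only with each other again lay nearer, with a lower quartile of 0.716 FPKM. The 2 loci of over 50 rows, with 25.1% of the rows at gene loci, weigh on this low end. Their row medians in the peak-labelled library were 0.422 and 0.272 FPKM, and without them the median of the class there was 2.09. Summed, the rows at gene loci took 0.166%, 0.125% and 0.191% of the FPKM of the 3 libraries.

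**Figure D1:**
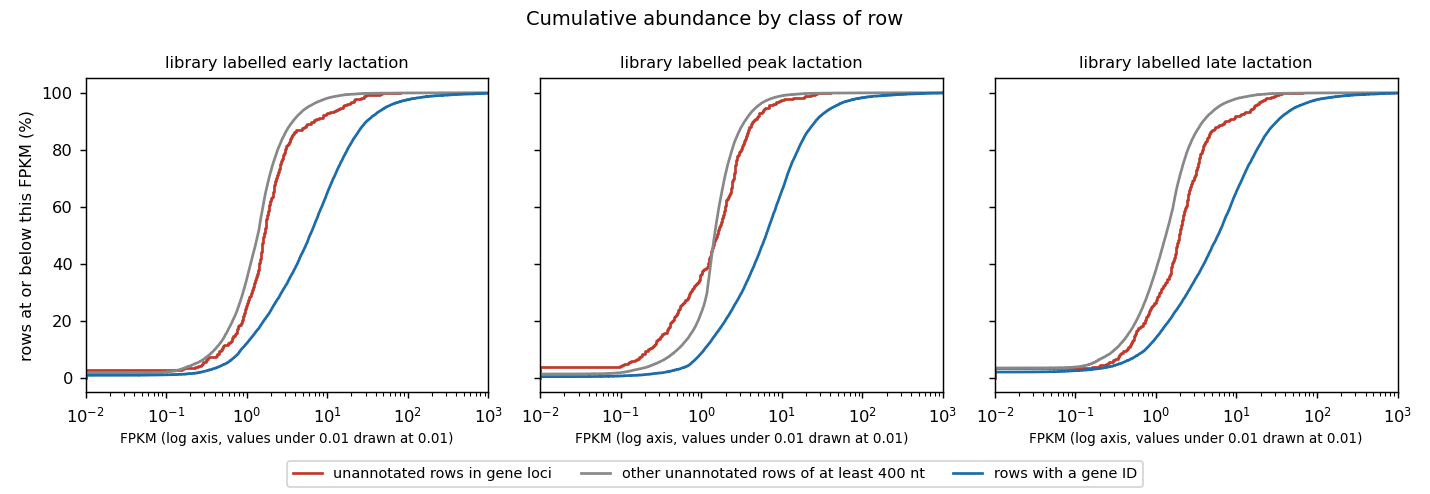
Cumulative share of rows (y axis, percent) at or below a given FPKM (x axis, log scale) in each library, for the 470 unannotated rows that share a gene's locus (red), other unannotated rows of at least 400 nt (grey) and rows with a gene ID (blue). The red curve lies near the grey one through the middle of each panel, reaches high FPKM later, and in the middle panel starts further to the left.

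Detection was broad. Of the 470 rows, 427 were above 0 in all 3 libraries and 43 were listed at 0 in at least 1, which is 9.15% against 5.61% of all rows. The rows at 0 numbered 12, 17 and 15 by library, and none was at 0 in all. A single row, XLOC_042712 at the lncRNA gene LOC102173237, was above 0 in 1 library alone, with 3.59 FPKM in the peak-labelled one. The file holds no read numbers, so the depth behind a value of 0 or of 1 FPKM is unknown.

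Of the 10 rows of highest mean abundance 8 lay at lncRNA loci, and the other 2, XLOC_036520 and XLOC_012310, at hosts without a match in the gene table. XLOC_019838 at LOC106502493, an lncRNA gene on scaffold NW_005100755.1 from 14083134 to 14102528, had 79.6, 19.5 and 59.7 FPKM, and its neighbour XLOC_019837 had 62.0, 18.8 and 65.2. Their host row had 126, 29.6 and 77.3 FPKM, so all these rows were lowest in the peak-labelled library. Another 5 of the 10 most abundant rows lay at LOC102169084, an lncRNA gene on scaffold NW_005101003.1 from 12730862 to 12768425. The strongest there, XLOC_051408, had 32.9, 39.6 and 37.0 FPKM beside 54.2, 65.8 and 60.0 for the host row. The median of its 8 rows was 18.2, 23.4 and 20.4 FPKM. Against the early-labelled library 1 of the 8 rows was at least 2-fold higher in the peak-labelled one and 2 in the late-labelled one, 1 was for late against peak lactation, and 0 were lower by as much in any comparison. XLOC_020469, at the locus of LOC102175023 and LOC106502528, had 21.8, 7.51 and 34.0 FPKM, nearly the same as the 21.9, 7.82 and 33.6 of its host row.

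An unannotated row was usually weaker than the gene row taken as its host. Where a locus had several gene rows, the one of highest mean FPKM was the host, a choice that by itself lowers the ratio of row to host. The median of row over host was 0.381, 0.405 and 0.395, and 71, 106 and 60 of 470 rows exceeded their host. At 43 of 51 loci the median of the rows lay under the host row on the mean over libraries. The gap was wide at the carriers, where the host was the row listed under the plain gene ID, without an assembly number. In that row SLC16A1 had 128, 39.5 and 198 FPKM while its 30 unannotated rows had medians of 1.71, 0.933 and 3.41. SLC1A1 had 91.8, 35.8 and 138 FPKM while its 20 rows had medians of 1.45, 0.921 and 3.26. The assembled gene rows, which have an assembly number and the gene ID, were far lower. They had 3.21, 0.818 and 3.25 FPKM at SLC16A1 and 7.33, 5.82 and 8.91 at SLC1A1. EIF4EBP2, a repressor of cap-dependent translation, had a wide gap to its only gene row, an assembled one. That row had 73.6, 38.4 and 93.5 FPKM, and the 2 unannotated rows had medians of 1.27, 1.37 and 1.10. At gene 102180340 the order was inverted, with 10, 14 and 9 of 14 rows above the host row. One of them stood far above it, XLOC_036520, with 21.3, 27.5 and 31.0 FPKM against 1.93, 1.45 and 1.88 in the host row. Across rows, the level followed that of the host only loosely, with Spearman coefficients of 0.32, 0.36 and 0.64 over 470 pairs in each library, where the rows of a locus share 1 host value.

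The first comparison asked how the unannotated rows at gene loci differed between the peak-labelled and early-labelled libraries. Of the 441 rows above 0 in both, 252 were at least 2-fold apart, or 57.1%, against 33.3% of all rows of the file. Lower in the peak-labelled library were 162 rows and higher were 90, or 36.7% and 20.4%, against 14.8% and 18.5% of all rows. The excess over all rows was thus largest among lower values. The median log2 ratio was -0.26, against 0.08 for all rows. Without the 2 loci of over 50 rows the split was 89 higher to 79 lower and the median was 0.06. Those 2, LOC102189349 and gene 106503433, both ran lower. Large loci that ran higher were kept, such as LOC102173237 with 27 higher and 0 lower and LOC102168677 with 18 and 4. The split over rows of any level thus hung on which large loci were included. With 1 value per locus, the median of its rows, 8 loci were at least 2-fold higher and 17 lower. Rows that shared a span only with other unannotated rows showed a like pattern, with 52.0% at least 2-fold apart, while rows within 10 kb of genes had 33.5%. With at least 1 FPKM in both libraries, 69 of 216 rows were at least 2-fold apart, or 31.9%, against 15.9% of all rows so filtered. Of these 25 were higher and 44 lower, or 11.6% and 20.4%, against 7.54% and 8.32%. At this level the 2 largest loci added no call, and 25 were higher and 44 lower without them. The filter had itself removed most of their rows, as 208 of the 216 lay at other loci. At gene 106503433 the highest value in the peak-labelled library was 0.775 FPKM, so none of its rows could pass. The filtered split thus describes other loci and cannot show what the pair adds.

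Between the late-labelled and early-labelled libraries the rows were closer. Of 444 rows above 0 in both, 161 were at least 2-fold apart, or 36.3%, against 21.9% of all rows. Of these, 86 were higher in the late-labelled library and 75 lower, where 9.39% and 12.5% of all rows passed the same limits. The median log2 ratio was 0.15 against -0.04 for all rows. With at least 1 FPKM in both libraries, 64 of 289 rows were at least 2-fold apart, or 22.1% against 7.67%. The 41 higher rows were 14.2% against 3.58%, and the 23 lower rows 7.96% against 4.09%. Without the 2 largest loci, over all FPKM above 0, 62 rows were higher and 59 lower.

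The late-labelled and peak-labelled libraries were the furthest apart. Of 438 rows above 0 in both, 284 were at least 2-fold apart, or 64.8%, against 39.3% of all rows. In the late-labelled library 184 were higher and 100 lower, against backgrounds of 16.7% and 22.7%. The median log2 ratio was 0.37 against -0.09 for all rows. Leaving out the 2 largest loci gave 93 higher and 99 lower and a median of -0.03. Both of them ran higher here. LOC102168677, with 0 rows higher and 30 lower, and LOC102173237, with 0 and 24, were kept. So here too the split among rows of any level hung on which large loci were included. By the median of its rows, a locus was at least 2-fold higher in 16 cases and lower in 11. Where both libraries had at least 1 FPKM, 72 of 200 rows were at least 2-fold apart, or 36% against 19.5%, of which 51 were higher and 21 lower, or 25.5% and 10.5%, against 10.6% and 8.9%. Without the 2 largest loci 50 were higher and 21 lower of 190. The filter had again removed most rows of that pair, so this split describes other loci. Every pair of these 3 comparisons shares a library, so they are not independent of each other.

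The peak-labelled library most often held the lowest value. The highest value of the 3 lay in the early-labelled library for 124 rows, in the peak-labelled one for 151 and in the late-labelled one for 195, and the lowest lay there for 120, 231 and 119. The highest value thus lay in these libraries for 26.4%, 32.1% and 41.5% of the rows, against 25.3%, 45.1% and 29.6% of all rows of the file, and the lowest for 25.5%, 49.1% and 25.3%, against 26.0%, 36.2% and 37.8%. Of the 352 rows outside the 2 largest loci, the highest value lay in these libraries for 80, 148 and 124. The lowest lay there for 111, 126 and 115, so outside that pair the lowest values were spread more evenly. Of the 231 rows lowest in the peak-labelled library, 126 were outside the pair. Counted by locus, the median of the rows was highest in these libraries at 11, 20 and 20 of 51 loci. Taken as 1 value per locus, the median of the rows was at least 2-fold higher in the peak-labelled library than in the early-labelled one at 8 loci and lower at 17 of 51. It was higher at 6 and lower at 8 of 50 for late against early lactation, and higher at 16 and lower at 11 of 50 for late against peak lactation.

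**Figure D2:**
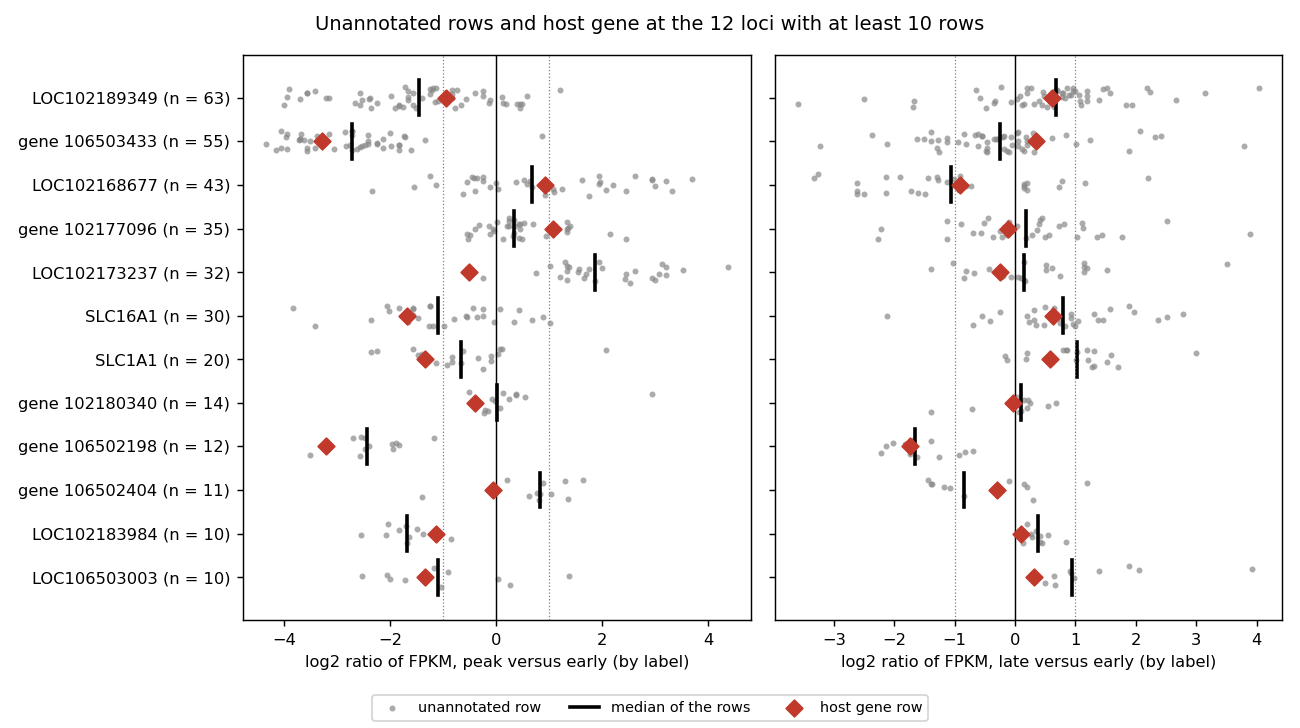
Log2 ratio of FPKM (x axis) for each unannotated row (grey points), their median (black bar) and the host gene row (red diamond) at the 12 loci with at least 10 rows, by label, for peak versus early (left) and late versus early lactation (right). Dotted lines mark 2-fold. The rows of gene 106503433 and gene 106502198 lie to the left with their hosts in the left panel, and those of LOC102173237 lie to the right while their host does not.

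SLC16A1 carries lactate, pyruvate and ketone bodies across the plasma membrane. Its locus was on scaffold NW_005100636.1 from 7384285 to 7526374. The gene row was 3-fold or more lower in the peak-labelled library than in the others, with log2 ratios of -1.69 for peak against early and 2.32 for late against peak. Of its 30 unannotated rows, 24 were lower in the peak-labelled library than in the early-labelled one, 15 of them by at least 2-fold and 1 higher by as much, with a median log2 ratio of -1.10. Against the peak-labelled library, 26 of 30 were higher in the late-labelled one, 22 of them by at least 2-fold. The rows thus had the order of libraries of this gene row, the plain one, at a small part of its level. The assembled row of the gene, with 3.21, 0.818 and 3.25 FPKM, had the same order at a level near that of the unannotated rows. A few rows went the other way. XLOC_005415, with 1.82, 3.65 and 5.40 FPKM, was the 1 row at least 2-fold higher for peak against early lactation, and XLOC_005390, with 0.883, 1.62 and 0.605 FPKM, was the 1 row at least 2-fold lower for late against peak. XLOC_005408, with 1.23, 1.04 and 7.05 FPKM, had a late to early log2 ratio of 2.52, among the 3 highest with at least 1 FPKM in both libraries.

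SLC1A1, the glutamate and aspartate carrier, resembled it. On scaffold NW_005100737.1 from 7425754 to 7576384, its 20 rows had a median log2 ratio of -0.68 for peak against early lactation and 1.58 for late against peak, where the gene row had -1.36 and 1.94. In the late-labelled library 19 of 20 rows were above their value in the peak-labelled one, 17 of them by at least 2-fold and 0 lower by as much. Against early lactation 11 of 19 rows were at least 2-fold higher and 0 lower, while the gene row had a log2 ratio of 0.59. These gene values are those of the plain row. The assembled row had log2 ratios of -0.33 for peak against early, 0.28 for late against early and 0.61 for late against peak.

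Other protein-coding hosts had fewer rows or smaller differences. ANK3 encodes ankyrin-G, which anchors membrane proteins to the cytoskeleton, and its 8 rows had medians of 2.43, 0.609 and 1.15 FPKM, with 5 of 8 at least 2-fold lower and 0 higher for peak against early lactation. The plain gene row had 25.9, 14.9 and 23.0 FPKM and the assembled one 3.88, 0.792 and 3.23, so gene rows and unannotated rows were lowest in the peak-labelled library. YAF2, a partner of YY1 and of Polycomb complexes, had 8 rows with medians of 2.02, 2.52 and 2.08 FPKM and 0 rows at least 2-fold apart in any of the 3 comparisons. At ELL, an elongation factor of RNA polymerase II, 6 rows had medians of 1.39, 1.34 and 1.71 FPKM. At PCED1B 6 rows had medians of 1.52, 1.67 and 0.547 FPKM. In the late-labelled library 5 of 6 were at least 2-fold lower than in each of the others. The assembled gene row had 2.71, 4.15 and 2.49 FPKM. The plain gene row had 3.59, 3.91 and 1.79 and was, like the unannotated rows, at least 2-fold lower in the late-labelled library than in each of the others. The rows of YAF2 and ELL thus differed little between libraries, and those of PCED1B stood low in 1 library.

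LOC102168677, a protein-coding gene without a symbol on scaffold NW_005100923.1 from 1247527 to 1644899, ran opposite to the carriers. Its 43 rows had medians of 1.21, 2.47 and 0.513 FPKM, with 18 at least 2-fold higher and 4 lower of 39 for peak against early lactation, and 30 lower and 0 higher of 36 for late against peak. The assembled row of this gene moved the same way, with 2.74, 5.20 and 1.46 FPKM, while the row listed under the plain gene ID had 2.94, 1.96 and 3.36. The 2 rows of 1 gene thus ran in opposite directions, and only the assembled one went with the unannotated rows.

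Rows at other protein-coding genes had the 3 largest ratios upward from the early-labelled to the peak-labelled library among rows with at least 1 FPKM in both. XLOC_002658, at KLHL41, a kelch protein known from skeletal muscle, had 1.53, 10.5 and 0 FPKM, beside a steady gene row of 1.55, 1.32 and 1.21. XLOC_003138, at MBD5, which has a methyl-CpG-binding domain, had 2.91, 13.7 and 3.38 FPKM. The assembled row of MBD5 had 1.68, 2.49 and 1.79, and the plain one had 1.48, 1.26 and 1.03 and was not highest in that library. The third of these rows, XLOC_030839 at LOC102184922, had 1.07, 4.10 and 1.19 FPKM beside 6.90, 16.5 and 4.01 in the plain gene row. XLOC_030841 at the same locus had 0.844, 14.9 and 1.93 FPKM and so was under the limit in the early-labelled library. At LOC102184922 gene and rows were highest in the same library, as was an assembled row of a second gene ID there, 102185482, with 2.26, 13.3 and 0.518 FPKM, and at KLHL41 the gene row was not. The single row at TMEM119, a membrane protein known from bone and microglia, had 2.67, 0.763 and 4.73 FPKM and that at GPR33, an orphan receptor, had 1.78, 0.849 and 5.22, both lowest in the peak-labelled library. The only gene row at GPR33, with 3.74, 1.71 and 4.47 FPKM, was lowest there too. At TMEM119 the assembled gene row, with 5.18, 3.23 and 12 FPKM, was lowest there and the plain gene row, with 2.67, 7.56 and 1.92, was highest. At SLC17A5, the lysosomal sialic acid exporter sialin, the row had 1.74, 0.869 and 0.495 FPKM while the gene row had 22.7, 10.2 and 26.5, so the row was lowest where this gene was highest. A second gene ID shares that locus, 102186597, with 0.991, 0.883 and 0 FPKM in its plain row and 1.19, 1.52 and 1.38 in its assembled row, so the host of the row is uncertain.

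Among lncRNA hosts, LOC102173237 was the clearest case of rows apart from the listed gene value. On scaffold NW_005100911.1 from 10636466 to 10713479, its 32 rows had medians of 0.638, 2.6 and 0.629 FPKM. For peak against early lactation 28 of 29 rows were higher, 27 of them by at least 2-fold, with a median log2 ratio of 1.87. For late against peak 25 of 27 were lower, 24 of them by at least 2-fold. The plain gene row, which was the host by its higher mean, had 1.13, 0.793 and 0.949 FPKM and was lowest where the rows were highest. The assembled row of the gene, at 0.672, 1.75 and 0.394 FPKM, was highest in the same library as the unannotated rows.

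A pair of lncRNA genes with 10 rows each went the other way. LOC102183984, on scaffold NW_005100820.1 from 2570368 to 2605519, had row medians of 14.5, 3.91 and 16.9 FPKM. Its plain gene row had 15.7, 7.11 and 16.8 FPKM and its assembled one 16.7, 2.57 and 18.0. The median in the peak-labelled library thus lay between these gene rows. At this locus 9 of 10 unannotated rows were at least 2-fold lower for peak against early lactation. LOC106503003, on scaffold NW_005100848.1 from 9241002 to 9308512, had row medians of 8.50, 3.77 and 17.0 FPKM beside 27.5, 10.8 and 34.2 in the gene row. At both loci 10 of 10 rows were at least 2-fold higher in the late-labelled library than in the peak-labelled one. LOC106503003 also held the 3 largest late to peak ratios with at least 1 FPKM in both libraries, led by XLOC_033137 with 21.4, 3.68 and 33.6 FPKM and a log2 ratio of 3.19. XLOC_033134 there had 1.74, 4.50 and 26.3 FPKM, the highest late to early log2 ratio at this limit, 3.92, and a peak to early ratio opposite to that of its host.

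The pseudogene LOC102189349 and gene 106503433, a host without a match, had the most rows. The 63 rows of LOC102189349 had medians of 1.30, 0.422 and 2.14 FPKM, and the gene row had 5.10, 2.65 and 7.79. For peak against early lactation 37 of 58 rows were at least 2-fold lower and 1 higher, and for late against peak 47 of 59 were higher and 1 lower. The 55 rows of gene 106503433 had medians of 1.97, 0.272 and 1.64 FPKM, with 46 of 47 at least 2-fold lower for peak against early lactation and 44 of 47 higher for late against peak. Its assembled gene row, the only one at the locus, had 1.80, 0.183 and 2.30 FPKM, and was thus of the same level as the rows.

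Gene 106502198 had the highest row medians of the hosts without a match, on scaffold NW_005100696.1 from 17238156 to 17270575. The medians of its 12 rows were 28.2, 5.13 and 9.28 FPKM, all 12 were at least 2-fold lower for peak against early lactation, and 9 of 12 were for late against early. XLOC_012310 there had 48.6, 4.26 and 14.5 FPKM, a log2 ratio of -3.51 for peak against early lactation, the lowest at 1 FPKM in both libraries. The gene row had 85.5, 9.16 and 25.7 FPKM, the same order of libraries. At gene 102177096, on scaffold NW_005100593.1 from 3677884 to 4109708, 35 rows had medians of 1.70, 2.44 and 2.26 FPKM and 8 were at least 2-fold higher and 0 lower for peak against early lactation. At gene 106502404 11 rows had medians of 0.805, 1.57 and 0.798 FPKM with 10 of 11 higher for peak against early lactation, while its gene row had 4.04, 3.86 and 3.27 FPKM. The 14 rows of gene 102180340 had medians of 2.19, 2.0 and 2.14 FPKM, with 1, 0 and 0 rows at least 2-fold higher and 0, 1 and 1 lower in the 3 comparisons.

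Rows of 1 locus differed between libraries more like each other than like rows of other loci. At the 24 loci with at least 5 ratios, the standard deviation of log2 ratios within a locus was 1.06 for peak against early lactation, 1.03 for late against early and 1.04 for late against peak. Over all these rows together it was 1.74, 1.22 and 1.89. At least 80 percent of the rows went in 1 direction at 15, 11 and 16 of the 24 loci. Loci of unannotated rows alone gave within-locus values of 0.929, 0.894 and 0.958, so this was no property of gene loci in particular. Rows of a locus come from the same libraries and may be pieces of 1 transcript, so they are not replicates.

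The assembly numbers give at most a hint of the order of the rows. By number, the start of the locus did not fall in 32399 of 32722 successive pairs on a scaffold. Pairs at 1 locus have the same start and are among these, so the count does not show order within a locus. At 47 of 48 loci the assembled gene row had a lower number than every row of its run. If the numbers also follow position within a locus, which is not stated in the sources used here, some loci had a slope. At SLC16A1 the Spearman coefficient of FPKM with number was 0.64, 0.37 and 0.41 over 30 rows. The median of the first 10 rows was 1.25, 0.699 and 3.02 FPKM and that of the last 10 was 2.41, 1.29 and 4.28. At gene 102177096 it was 0.23, 0.45 and 0.64 over 35 rows, and at gene 106503433 it was 0.00, -0.39 and -0.19 over 55 rows. At LOC102173237 it was 0.10, -0.20 and 0.30 over 32 rows. At gene 106502198 it was -0.27, -0.13 and -0.71 over 11 rows, and at gene 102180340 -0.25, -0.29 and -0.64 over 13. Of the 12 loci with at least 10 rows in a run, 3 had positive coefficients in all 3 libraries, 4 had negative ones and 5 had both signs, so no direction was common to the loci.

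**Figure D3:**
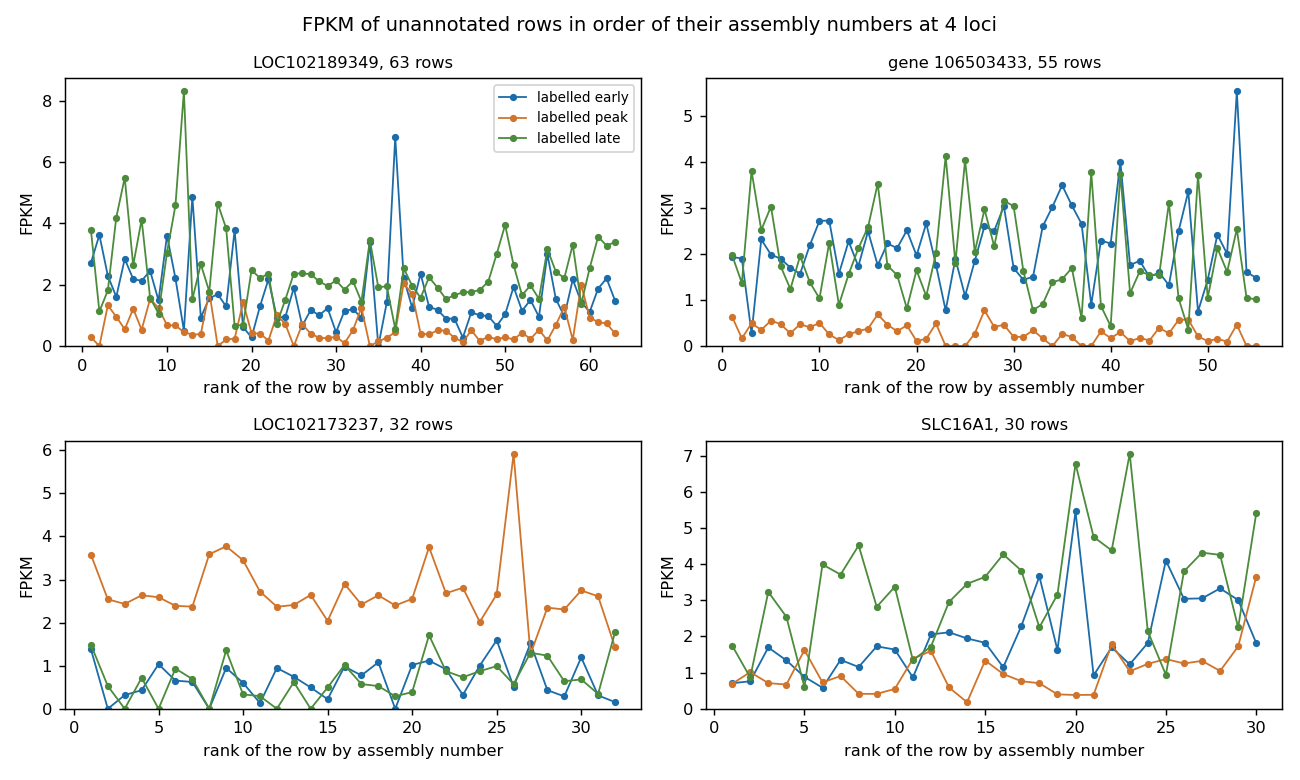
FPKM (y axis) of the unannotated rows in order of their assembly number (x axis, rank) at 4 loci, with 1 line per library by label. The peak-labelled library lies above the others along nearly the whole of LOC102173237 and below them along nearly the whole of gene 106503433, so the difference is not that of a few rows.

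Ratios of unannotated rows went with those of the host gene. For peak against early lactation 314 of 441 pairs had the same sign, or 71.2%, for late against early 288 of 444, or 64.9%, and for late against peak 346 of 438, or 79.0%. Unannotated rows within 10 kb of a gene, set against the nearest gene row, had the same sign in 65.5%, 55.8% and 65.8% of pairs. Pearson coefficients over pairs were 0.65, 0.43 and 0.72 at gene loci and 0.43, 0.17 and 0.48 for the nearby rows, where each pair comes from the same libraries and rows of a locus share a host. Where both row and host were at least 2-fold apart, 121 of 125, 17 of 18 and 221 of 226 pairs had the same sign. For the rows within 10 kb of a gene these were 983 of 1102, 153 of 195 and 1516 of 1650 pairs, so most such pairs had the same sign there too.

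One value per locus gave the same picture. The median of the rows and the host had the same sign at 37 of 51, 34 of 50 and 38 of 50 loci, with Pearson coefficients of 0.71, 0.51 and 0.76 and Spearman coefficients of 0.69, 0.52 and 0.75. By class of host, rows at protein-coding genes had the same sign in 72.1%, 74.1% and 81.4% of pairs and rows at lncRNA genes in 62.0%, 66.0% and 59.2%. The low share at lncRNA genes holds the rows of LOC102173237. Agreement also hung on which gene row was the host. Against the assembled rows with a gene ID the shares were 76.2%, 62.8% and 83.6% of 441, 444 and 438 pairs above 0. Against the plain gene ID rows they were 62.7%, 54.5% and 62.7% of 252, 336 and 249 pairs.

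**Figure D4:**
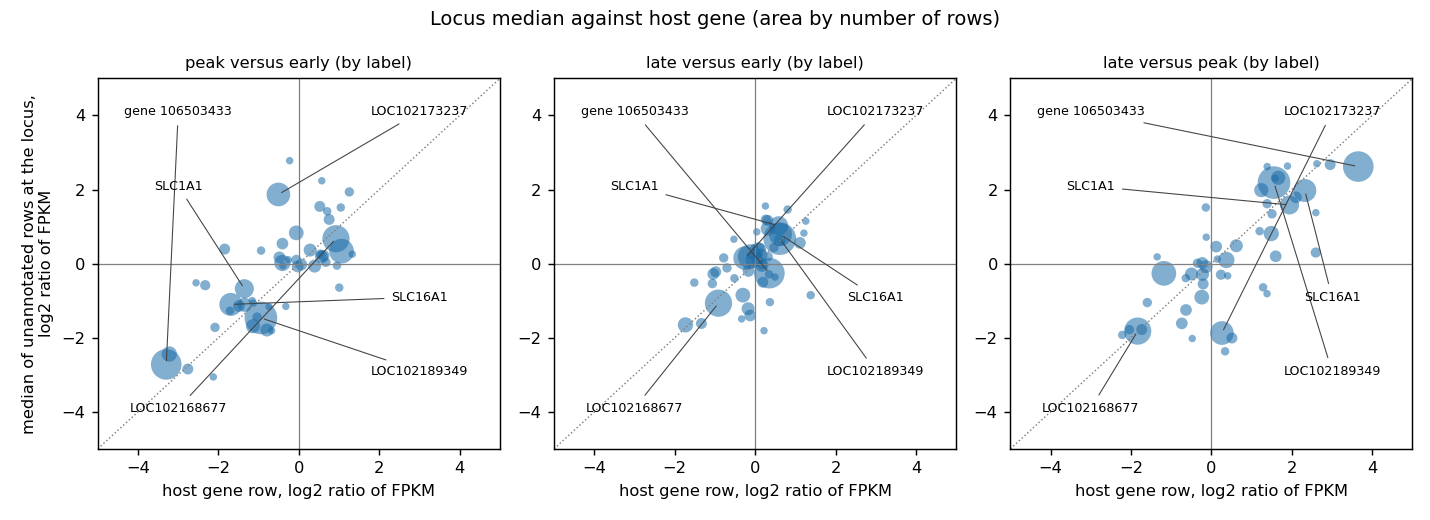
Median log2 ratio of the unannotated rows of a locus (y axis) against the log2 ratio of its host gene row (x axis) for the 3 comparisons by label, with 1 circle per locus, its area set by the number of rows, and the dotted line marking equal ratios. Most loci lie in the lower left and upper right of each panel, and LOC102173237 lies off them in the left and right panels.

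Rows that went against their host were few among pairs in which both were at least 2-fold apart. At any level above 0 there were 4 of 125 such pairs for peak against early lactation, 1 of 18 for late against early and 5 of 226 for late against peak. With at least 1 FPKM in both libraries as well, there were 2, 0 and 1. The 216, 289 and 200 rows at that FPKM limit include many where row or host was under 2-fold, which could not be counted. The 2 for peak against early lactation were XLOC_033134 and XLOC_005415, given above. The other was XLOC_000278 at gene 102177096, with 2.81, 1.93 and 4.90 FPKM beside 4.39, 9.15 and 4.03 in its host row, the assembled one. The plain row of that gene had 0.0549, 0 and 1.58 FPKM, the same order of libraries as XLOC_000278.

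A small set of rows stood apart by number. Assembly numbers formed 1 ascending run on 2752 of 3070 scaffolds and 2 runs on 313, and 460 rows were in the run of an assembled gene row of their locus. The other 10, at 9 loci, were in the other run, and whether a run stands for a strand is not stated in the sources used here. They include XLOC_036520 at gene 102180340, the strong row described above, and XLOC_018706 at SESN1, a stress-inducible sestrin. The latter had 1.22, 0.543 and 0.432 FPKM beside 10.8, 6.44 and 8.53 in the plain gene row and 0.808, 1.92 and 0.562 in the assembled one. Of the 10, 6, 8 and 6 had the sign of their host in the comparisons of peak with early, late with early and late with peak lactation. So few rows do not show whether this set differs from the rest.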

How the data were processed

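Mammary gland RNA of 5 Laoshan goats per stage was pooled into 1 library for each of 3 stages. Reads had been trimmed by the authors and mapped with TopHat2 2.0.9 and Bowtie2 and transcripts assembled with Cufflinks 2.1.1, merged with Cuffmerge and quantified with Cuffdiff, per the submitters' processing notes and the methods, and the authors deposited FPKM per row with 1 column per library. How a row without a gene ID got its listed locus is not given in the sources used here. The deposited FPKM hold no counts, so depth is unknown and no interval is given. Of 63506 values with 7 significant digits, 97.5% end in 5, as means of pairs of numbers would. The file had 0 columns of other samples.

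Rows, hosts and lists were chosen with earlier results of these data known. The host is the shortest containing gene row, and of gene rows at 1 locus the one with the highest mean FPKM, a choice made after the data were seen. Ratios used rows above 0 in both libraries. Rows were called at a fold of 2, with no test since each stage has 1 library, and were set beside the same share of all rows. Rows were named by fixed rules: the 10 highest means, the 3 largest ratios per direction and the 3 furthest opposite to the host with at least 1 FPKM in both libraries, the 8 hosts with most rows, the spans at the limits, and rows in 1 library alone. The rows at other loci named here were chosen after their values were seen. Gene IDs were matched to the ARS1.2 gene table for names and classes alone, and 46 of 60 matched. No genome was used. On simulated data 200 of 200 changed loci were recovered with 0 false among 49173. That run checked the calling step alone. With 1 library per stage, how often a call on the deposited FPKM is false was not tested. Alternatives were the fold, pseudocounts, FPKM filters, centring, spans, the choice of host and exchanged labels. The scripts ran under Python 3.11.15 with pandas 2.3.3, numpy 2.4.6 and scipy 1.17.1, and plots were drawn with matplotlib 3.10.9.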

Additional observations from a re-analysis of the deposited data

How the results depend on the processing

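No paired analysis was possible because there was 1 library per stage, and for the same reason no replicate could be left out. Counts of rows at least 2-fold apart, 252, 161 and 284 for peak against early, late against early and late against peak lactation, were 121, 48 and 163 at a fold of 4 and 69, 64 and 72 with at least 1 FPKM in both libraries, or 69, 45 and 71 when the 2 loci of over 50 rows were left out as well. With a pseudocount of 1 the first 2 were 166 and 81. With 1 row per locus the counts were 26, 16 and 30, since fewer rows were counted. With the columns labelled peak and late lactation exchanged, the first 2 counts were 161 and 252, the shares with the sign of the host were 64.9% and 71.2%, and the median log2 ratios reversed to 0.15, -0.26 and -0.37. Without the 2 loci of over 50 rows, an alternative chosen after seeing the data as were 1 row per locus and the choice of plain or assembled host row, the medians reversed to 0.062 for peak against early and -0.027 for late against peak, and 1 row per locus gave 0.034 for peak against early. A split that moved by over 10 percentage points otherwise was that of late against early with at least 1 FPKM in both libraries, at 64.1% higher against 53.4%, and 66.7% when the 2 loci were left out as well.

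The share with the sign of the host, 71.2%, 64.9% and 79.0%, moved with the host. For peak against early it was 77.6% with 1 row per host, 77.3% with the host summed over its gene ID, 62.7% with the plain row, 76.2% with the assembled row and 65.2% without the largest loci. For late against early it was 54.5% with the plain row. For late against peak these 5 settings gave 74.0%, 83.3%, 62.7%, 83.6% and 73.8%. The median FPKM of rows by library in the order early, peak and late by label, 1.64, 1.57 and 1.95, was 1.69, 1.64 and 1.99 above 0 alone, 2.59, 2.39 and 2.5 with 1 row per host and 1.60, 2.09 and 1.93 without the largest loci, where row over host was 0.345, 0.406 and 0.382. The cause of these shifts was not tested. A longer minimum span and the longest containing host gave the same values, and rows that share neither end with the host could not be used because there were none.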
